A study of Homo sapiens with 4 samples.

Results

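TSC22D3, a leucine zipper protein also called GILZ, was followed here together with FKBP5, ZBTB16, SGK1 and KLF9, genes that both the androgen receptor and the glucocorticoid receptor are known to induce. Members were all probe sets that the platform annotation assigns to one of these genes alone, and 8 of 22215 probe sets met this rule, for 5 of the 6 genes considered and of 11963 genes named in all. They comprised 2 probe sets of TSC22D3, 3 of KLF9 and 1 each of FKBP5, ZBTB16 and SGK1. The sixth gene, the clock gene PER1, shares both of its probe sets with the microRNA gene MIR6883 in the annotation, so no value is given for it. TSC22D3 was selected on its fold change between the MED1 and empty vector samples, the comparison given here, and its values are therefore a description, with no test. The other genes were chosen for their known induction by both receptors, with earlier results of these data known.

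The samples were LNCaP, an androgen-responsive prostate cancer cell line, grown in RPMI-1640 medium with 10% fetal bovine serum and transfected transiently with Lipofectamine. The 2 samples of the MED1 group received a MED1 expression vector and the 2 samples of the control group received the empty vector, and RNA was taken 24 hours later. MED1 is the subunit of the Mediator complex that nuclear receptors contact. The labels name no added hormone, do not give the share of cells that took up the vector and do not say whether the duplicates were separate cultures, so the p-values may reflect technical spread alone. One free-text field of the control samples mentions the MED1 vector; it was not followed, since 3 other labels of those samples (title, source and transfection) give the control vector.

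The androgen and glucocorticoid receptors are hormone-activated transcription factors that bind the same palindromic DNA element. Genes near such elements can therefore answer to either hormone, depending on which receptor a cell holds. In prostate cancer cells this overlap is known for letting the glucocorticoid receptor take over part of the androgen programme when androgen signalling is blocked. The proteins encoded by the members act in different ways: TSC22D3 restrains inflammatory transcription factors, FKBP5 is a co-chaperone that feeds back on steroid receptors, ZBTB16 (PLZF) and KLF9 are zinc finger transcription factors, and SGK1 is a kinase that regulates ion channels and transporters.

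Promoter sequence was examined for what the members share beyond the rule. RefSeq windows of 300 bases (250 before and 50 after each transcription start, GRCh38.p14) were matched for 4 of the 5 member genes, 10 windows in all, and not for ZBTB16. The full receptor element, written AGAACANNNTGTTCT, was found in 0 of these 10 windows and in 1 of 35116 windows of all genes. Its half-site, AGAACA on either strand, was found in 2 of 10 windows and in 14.8% of all windows, and the forkhead motif GTAAACA, bound by FOXO factors that also act on TSC22D3, in 1 of 10 windows and 3.42% of all. The C/EBP-ATF motif TGATGCAA was found in 0 of 10 and 0.866% of all. A match is a description and not a binding site, and a missing match says only that these letters are not in this window. The half-site share in the members is near that of all windows, and the matches are not read as setting members apart. The 3 matches are shown so that the letters found can be read. The match is in capitals, and each sequence is read 5′ to 3′ on the gene's strand, which is the minus strand for all 3. The TSC22D3 match is the reverse complement of the motif as written above, so the motif lies on the other strand there.
FKBP5 half-site, chr6:35728567-35728594: accactaccccAGAACAaactcctacct
SGK1 half-site, chr6:134177840-134177867: gggttcataacAGAACAgggatagccgt
TSC22D3 forkhead motif, chrX:107717192-107717220: aagtgctgaacTGTTTACagtcccagcct
The FKBP5 and SGK1 half-sites begin 1 and 6 bases into the transcribed sequence, and the TSC22D3 match begins 147 bases before 1 of its 4 listed starts.

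Values are the authors' MAS5 signals on a linear scale, and fold changes are on the log2(signal + 16) scale, which understates changes at low signal. MED1 itself was higher in the samples given its vector by its dimmer probe set, which read 559 and 807 against 292 and 315 (log2 fold change 1.11 ± 0.16 SE, limma Benjamini-Hochberg adjusted p = 0.0320). With an array left out the log2 fold change was 0.848 to 1.365. That call was lost with no filter on dim probe sets (adjusted p = 0.381) and without the variance trend (adjusted p = 0.358). The brighter MED1 probe set overlapped between groups (0.09 ± 0.10, adjusted p = 0.83). Luminal prostate markers were present, with KLK3 (prostate-specific antigen) at 3659 to 4208 on its brighter probe set. Of 8 tested luminal genes 0 passed, with a median log2 fold change of -0.105, 6 negative and 2 positive. Both MED1 arrays lay below both empty vector arrays for 4 of the 8 and above for 0, where 22.6% and 17.2% of all tested probe sets did so. Of 24 probe sets of leukocyte, endothelial, fibroblast and basal markers, 3 passed the filter on dim signals, the highest value was 156, and their summed signal was 499 and 666 with MED1 and 487 and 696 with the empty vector. In total 39 of 13329 tested probe sets passed at an adjusted p of 0.05, 14 higher and 25 lower in the MED1 samples. The median of all log2 fold changes was -0.02.

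TSC22D3 was lower in both MED1 samples by its brighter probe set, the value it was selected on. It read 1056 and 1259 with MED1, against 2281 and 2409 in the empty vector samples. The groups did not overlap, and the mean of the MED1 samples, 1157 ± 144 (SD, n = 2), was 49.4% of the empty vector mean of 2345 ± 90.1. The log2 fold change was -1.01 ± 0.11 (SE), the 20th lowest of the 13329 tested probe sets. Both MED1 arrays lay below both empty vector arrays for 22.6% of all tested probe sets. Over the 4 pairings of a MED1 with an empty vector array the differences were -1.18 to -0.85 on the log2 scale. The rank and these differences come from the values TSC22D3 was selected on and carry no test. In bulk RNA, fewer cells expressing a gene and less of its RNA per cell cannot be told apart.

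The dimmer TSC22D3 probe set lay in the same direction with a wider spread. Its annotation class, marked by an x in the name, means that some of its probes can match other transcripts. It read 57.2 and 64.7 in the MED1 samples, against 136 and 83.7 in the empty vector samples. The groups did not overlap, which held in this direction for 22.6% of all tested probe sets. The empty vector samples differed from each other more than the lower of them differed from the MED1 samples. The log2 fold change was -0.68 ± 0.24 (SE). It ranged from -0.99 without empty vector replicate 2 to -0.38 without empty vector replicate 1, so its size rested largely on empty vector replicate 1.

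**Figure D1:**
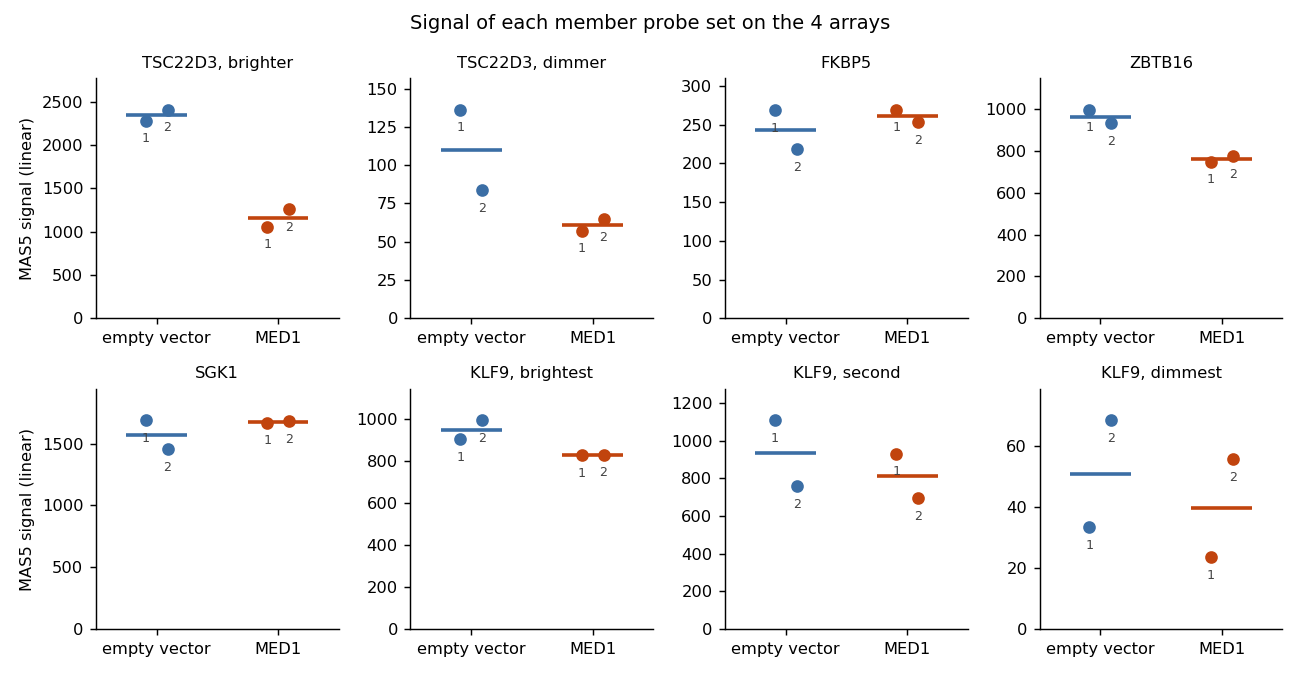
MAS5 signal (linear axis from 0) of the 8 member probe sets, 1 panel each, on the 2 empty vector and 2 MED1 arrays. Points are arrays marked with their replicate number and bars are group means (n = 2). Both TSC22D3 panels, ZBTB16 and the brightest KLF9 probe set show MED1 arrays below empty vector arrays, and the other 4 panels overlap. Of all tested probe sets 22.6% had both MED1 arrays below.

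None of the other 4 genes passed the test. Of their 6 probe sets 0 passed (limma, Benjamini-Hochberg), where 0.293% of all tested probe sets passed in either direction and 0.188% as lower, and 1, that of ZBTB16, had an unadjusted p under 0.05, where 9.2% of all did. Their log2 fold changes were negative for 4 probe sets and positive for 2, with a median of -0.19. Both MED1 arrays lay below both empty vector arrays for 2 of the 6 and above for 0, where 22.6% and 17.2% of all tested probe sets did so.

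FKBP5, the co-chaperone that lowers hormone binding of the glucocorticoid receptor, overlapped between the groups. It read 269 and 254 with MED1 and 268 and 219 with the empty vector. The second empty vector sample was the lowest of the 4, and the other 3 lay close together. The log2 fold change was 0.10 ± 0.15 (SE), with a 95% interval from -0.23 to 0.43 (limma, Benjamini-Hochberg adjusted p = 0.874). Without empty vector replicate 2 it was -0.04.

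SGK1, the serum- and glucocorticoid-regulated kinase, also overlapped between groups. It read 1672 and 1683 with MED1 and 1689 and 1458 with the empty vector. The only array that stood apart was the second empty vector sample, which was the lowest. The log2 fold change was 0.09 ± 0.10 (SE), with a 95% interval from -0.13 to 0.32 (limma, Benjamini-Hochberg adjusted p = 0.821), and it was -0.01 without that array.

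ZBTB16, a BTB zinc finger repressor, was the member closest to TSC22D3 in pattern but lay at a smaller difference that did not pass. It read 749 and 776 with MED1 and 998 and 932 with the empty vector. The groups did not overlap, and the MED1 mean of 763 ± 19.1 was 79.0% of the empty vector mean of 965 ± 46.6 (SD, n = 2). The log2 fold change was -0.33 ± 0.10 (SE), with a 95% interval from -0.55 to -0.11 (limma, unadjusted p = 0.00783, Benjamini-Hochberg adjusted p = 0.333). Across the alternatives tried the adjusted p ranged from 0.108 to 0.770.

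KLF9, a Kruppel-like factor that binds GC-rich promoter sequences, had 3 probe sets, all with negative values and none past the threshold. The brightest read 830.2 and 832 with MED1 and 906 and 995 with the empty vector. These did not overlap, and the log2 fold change was -0.19 ± 0.10 (SE; 95% interval -0.41 to 0.03; limma, Benjamini-Hochberg adjusted p = 0.599). The second read 932 and 694 against 1109 and 758, with the first array high and the second low in both groups, and gave -0.19 ± 0.18 (adjusted p = 0.801). The dimmest read 23.5 and 55.7 against 33.4 and 68.3, with the opposite order of the arrays, and gave -0.28 ± 0.36 (adjusted p = 0.857). With an array left out the last 2 turned direction, the second to as much as 0.08 and the dimmest to as much as 0.15.

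**Figure D2:**
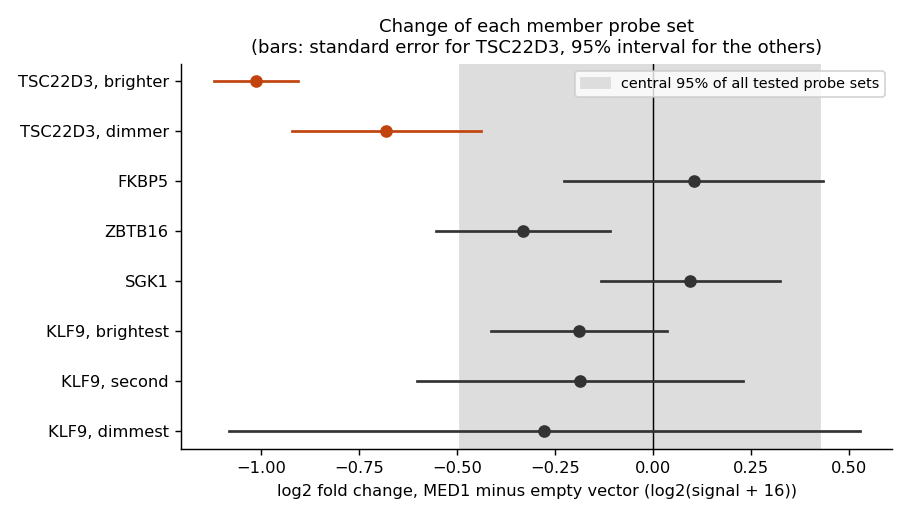
Log2 fold change (MED1 minus empty vector, log2(signal + 16)) of each member probe set. Bars are the standard error for TSC22D3 and the 95% interval for the other members, and the grey band spans the central 95% of all tested probe sets, -0.49 to 0.43. Both TSC22D3 points lie left of the band and the points of the other 6 probe sets lie inside it.

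Of the receptors that read the shared element, 1 gave a signal above the filter. NR3C1, the glucocorticoid receptor, had 4 probe sets, all under the filter level of 31, with a highest value of 22.9, and no detection calls were used to set these against background. The single probe set of PGR, the progesterone receptor, was also under the filter (highest value 19.6). LNCaP cells are known to hold little of the glucocorticoid receptor. NR3C2, the mineralocorticoid receptor that binds the same element, read 276 and 312 with MED1 and 289 and 311 with the empty vector (log2 fold change -0.03 ± 0.13, limma Benjamini-Hochberg adjusted p = 0.969). The androgen receptor was not analysed here. Of 8 tested genes of the HSP90 machinery that folds these receptors, 0 passed, with a median of 0.06 (-0.03 to 0.11 with an array left out). FKBP4, the co-chaperone that competes with FKBP5, gave -0.14 ± 0.11 by its brighter probe set and 0.0036 ± 0.12 by the other. The first value was -0.26 without empty vector replicate 1 and -0.013 without empty vector replicate 2.

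The paralogs of TSC22D3 gave values near or above 0 by their brightest probe sets, and none passed. TSC22D1, a transcriptional regulator with the same zipper domain, read 5602 and 5725 with MED1 and 5761 and 5116 with the empty vector, a log2 fold change of 0.06 ± 0.10 (95% interval -0.17 to 0.29). TSC22D2 gave 0.02 ± 0.12 by its brightest probe set and -0.11 ± 0.26 by the other tested one. TSC22D4 read 41.9 and 63.3 against 34.5 and 40.4, without overlap and in the opposite direction (0.34 ± 0.26; 0.12 without MED1 replicate 2 and 0.57 without MED1 replicate 1). These signals lay near the filter level of 31, and 17.2% of all tested probe sets had both MED1 arrays above. With NRBP1, a binding partner, 4 genes of this group were tested and 0 passed, with a median of 0.05 (0.01 to 0.15 with an array left out; lowest adjusted p = 0.722, limma, Benjamini-Hochberg).

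Genes around the other members were counted in the same way, as further lists. For SGK1, 9 relatives, activators and substrates were tested and 0 passed, with a median of 0.03 (-0.03 to 0.06 with an array left out). The paralog SGK2 gave 0.05 ± 0.16 and the substrate NDRG1, which is also an androgen target, gave 0.16 ± 0.10. For KLF9, 9 other Kruppel-like factors were tested and 0 passed, 7 negative and 2 positive. Their median was -0.13, which was 0.02 without empty vector replicate 1 and -0.26 with all tested probe sets of a gene averaged. For ZBTB16, 9 related zinc finger factors and corepressors were tested and 0 passed, with a median of -0.08, and of -0.05 to 0.06 with an array left out. The direction of both medians thus turned with single arrays. Over all features tested the median was -0.02 and 0.293% passed.

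Hormone targets outside the members were counted separately by receptor. Of 23 tested genes widely induced by glucocorticoids, 1 fell and 0 rose, where 0.188% and 0.105% of all tested probe sets passed in these directions. All lists were chosen with earlier results of these data known, so the calls in them are a description. The median of the 23 genes was -0.02, which was -0.16 without empty vector replicate 1 and 0.07 without empty vector replicate 2. The gene that fell was DDIT4 (REDD1), an inhibitor of mTORC1, which read 4873 and 4845 in the MED1 samples against 8138 and 7840 in the empty vector samples (log2 fold change -0.72 ± 0.09, limma Benjamini-Hochberg adjusted p = 0.0158). With an array left out its log2 fold change was -0.74 to -0.69. That call was lost with no filter on dim probe sets (adjusted p = 0.175) and without the variance trend (adjusted p = 0.301). TXNIP, an inhibitor of thioredoxin that is in both the glucocorticoid and the FOXO list, fell by 2 of its 3 probe sets (-0.89 ± 0.09 and -0.87 ± 0.12, adjusted p = 0.00420 and 0.0167). Its brightest probe set, by which it is counted in the lists, missed the threshold at -0.56 ± 0.10 (adjusted p = 0.0634). The 2 calls were lost with no filter on dim probe sets (adjusted p = 0.0868 and 0.221) and without the variance trend (0.217 and 0.337). With an array left out their log2 fold changes were -0.94 to -0.84 and -1.02 to -0.71. The brightest probe set gave -0.62 to -0.50 with an array left out. It passed with quantile normalization (0.0237), the filter at the 60th percentile (0.0367), robust eBayes (0.0384) and the replicate block (0.00137). DUSP1, a phosphatase that switches off MAP kinases, gave 0.16 ± 0.10, and CEBPD, a C/EBP transcription factor, -0.16 ± 0.10.

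Of 23 tested genes induced by androgen in LNCaP cells, 0 passed, with a median of 0.05 (0.02 to 0.08 with an array left out), 13 positive and 10 negative. The median was 0.0029 with the filter at the 60th percentile and 0.10 with centring of the arrays on their median. KLK3 gave -0.13 ± 0.09 by its brighter probe set (limma, Benjamini-Hochberg adjusted p = 0.702), and -0.069 without MED1 replicate 1. Of 13 tested genes induced by FOXO factors 0 passed by their brightest probe set, 9 negative and 4 positive. Their median was -0.06 (-0.09 to -0.04 with an array left out). In these lists the genes lay on both sides of 0.

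**Figure D3:**
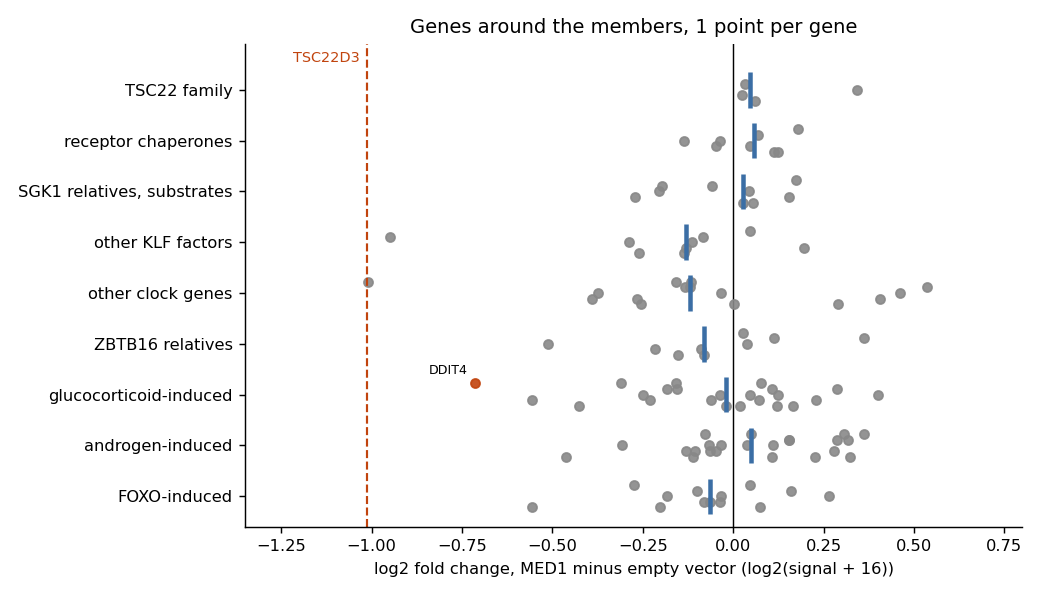
Log2 fold change (MED1 minus empty vector, log2(signal + 16)) of the tested genes of 9 lists, 1 point per gene by its brightest tested probe set, with list medians as blue bars. The only point past the threshold is DDIT4 in orange, and the dashed line marks the brighter TSC22D3 probe set at -1.01. The medians of the 9 lists lie between -0.13 and 0.06.

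Likeness to TSC22D3 was measured over the 4 arrays, as the Euclidean distance between log2 profiles after each probe set was centred on its own mean. The 5 nearest genes lay at a distance of 0.0926 to 0.132. They were CARS1, the cytosolic cysteinyl-tRNA synthetase, NUPR1, a stress-induced chromatin protein, STC2, a secreted glycoprotein, TRIB3, a pseudokinase, and SLC1A4, a transporter of neutral amino acids. NUPR1 read 1345 and 1469 in the MED1 samples against 2869 and 2978 in the empty vector samples, and TRIB3 read 1291 and 1366 against 2586 and 2705. Since these genes were selected on their likeness to TSC22D3, itself selected for its lower signal, their log2 fold changes of -1.05 to -0.93 on the nearest probe sets follow from the choice and carry no test.

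The other members lay at larger distances. ZBTB16 lay at a distance of 0.707, with 621 other probe sets closer, and the brightest KLF9 probe set at 0.843. SGK1 and FKBP5 lay at 1.14 and 1.17, with 9489 and 10023 other tested probe sets closer to TSC22D3. The dimmer TSC22D3 probe set itself lay at 0.595. Profiles were centred and not scaled, so these distances largely restate the fold changes given above. They are measured from a gene selected for its lower signal and carry no test.

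**Figure D4:**
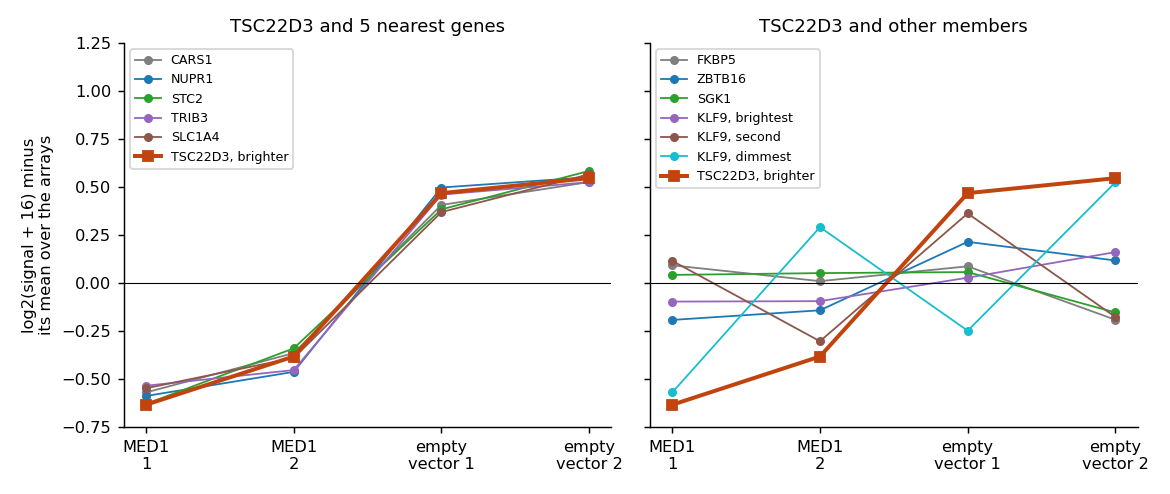
Log2(signal + 16) minus its mean over the 4 arrays (y axis) on each array (x axis), for the brighter TSC22D3 probe set in orange with the 5 nearest genes (left) and with the other members (right); lines join the values of 1 probe set. The nearest genes follow TSC22D3 on all 4 arrays, at distances of 0.0926 to 0.132, while ZBTB16 moves less and the other members cross or lie near 0.

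The log2 fold change of the brighter TSC22D3 probe set was -1.14 to -0.89 with any array left out. With the other settings tried it was -1.02 to -0.96. TSC22D3 was selected on this fold change over these same arrays, so both ranges largely follow from the choice. They describe the spread of the selected value and carry no test.

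**Figure D5:**
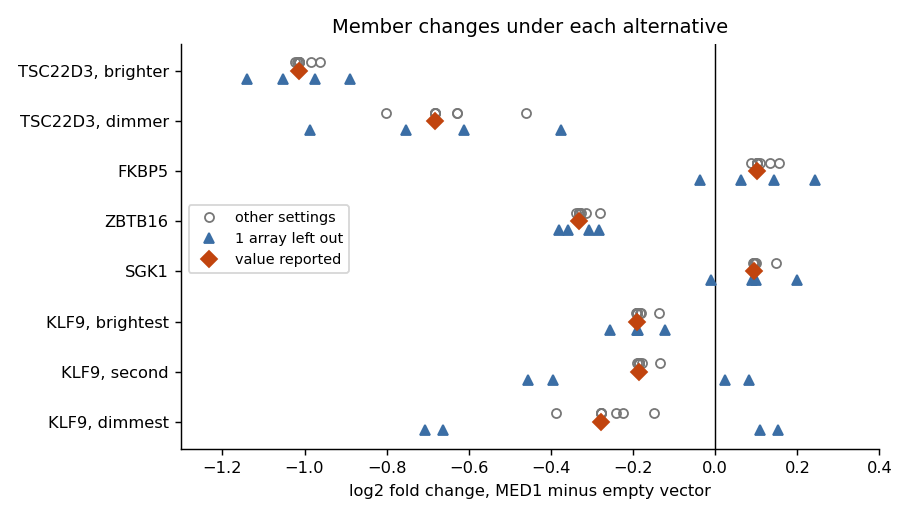
Log2 fold change (MED1 minus empty vector) of each member probe set as reported (diamonds), with 1 array left out (triangles) and with the other settings (circles). The brighter TSC22D3 probe set stays between -1.14 and -0.89, ZBTB16 between -0.38 and -0.28, and FKBP5, SGK1 and 2 KLF9 probe sets fall on both sides of 0.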

How the data were processed

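RNA of 4 LNCaP samples, 200 ng each, was labelled with biotin and hybridised to Affymetrix arrays, 1 array per sample. The deposited intensities come from MAS5, per the submitters' processing notes, and are linear; its version is not given in the sources used here. With 2% trimmed at each end their mean was 500.2 on all 4 arrays, and nothing was rescaled. Arrays have no read depth, and their number limits the precision.

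The 62 control probe sets of 22277 were left out. Of the others, the platform annotation named 1 gene for 19064, several for 1043 and none for 2108, and 19052 were matched by Entrez identifier to RefSeq (GRCh38.p14) for names. Probe sets with a mean log2(signal + 16) under the 40th percentile were left out (8886); all 8 member probe sets passed. Groups were compared over all 13329 others with limma 3.58.1 in R 4.3.3 (eBayes with an intensity trend, Benjamini-Hochberg adjustment, threshold 0.05), checked on simulated data. Tests are two-sided; an exact permutation test of 2 against 2 cannot go below 0.333. SEs and intervals are limma's, with 7.3 prior and 2 residual degrees of freedom.

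Members and gene lists were chosen with earlier results of these data known. Lists count each gene by its brightest tested probe set. Named genes were the members, MED1, a fixed set of relatives and hormone targets, list genes that passed, and the 5 nearest to TSC22D3; others are identified where named. Plots used matplotlib 3.10.9.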

Additional observations from a re-analysis of the deposited data

How the results depend on the processing

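None of the 13 alternatives made a member probe set other than TSC22D3 pass (0 in each). The count of all passing probe sets was 39, against 0 with no filter on dim probe sets, 5 without the variance trend, 239 with the replicate number as a block and 25 to 216 with an array left out. Genes of the lists that passed by their brightest probe set numbered 1, against 2 with quantile normalization, with the filter at the 60th percentile and with robust eBayes, 0 with no filter and without the trend, 6 with the replicate block, and 0 to 4 with an array left out. Deviations of same-numbered replicates correlated at 0.12 over the 13329 tested probe sets. The arrays form only 2 such pairs, too few to treat as pairing, and the block changed no member's call. Leaving out 1 array turned the direction, with no call made, for FKBP5 (-0.036 to 0.242), SGK1 (-0.0101 to 0.20), the dimmest KLF9 probe set (-0.707 to 0.152), the second (-0.455 to 0.0829), NR3C2 (-0.113 to 0.0543; 0.0227 with median centring), SGK2 (-0.0335 to 0.14), TSC22D1 (-0.0246 to 0.146) and TSC22D2 (-0.105 to 0.152). The non-member genes given as passing (MED1, DDIT4 and TXNIP) did not pass with no filter or without the trend, and none turned direction. The filter at the 60th percentile left out the dimmer TSC22D3 and the dimmest KLF9 probe sets. The cause was not tested. Low signals have no known background.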

Other observations

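PER1 could not be read alone, but 15 other circadian clock genes were tested, and 0 passed (limma, Benjamini-Hochberg lowest adjusted p = 0.269). Their median log2 fold change was -0.12, with values on both sides of 0, and -0.03 both without MED1 replicate 1 and with the filter at the 60th percentile. PER2, a paralog of PER1, read 579 and 543 with MED1 and 736 and 614 with the empty vector (-0.25 ± 0.12, adjusted p = 0.576; -0.13 without empty vector replicate 1 and -0.38 without empty vector replicate 2). PER3, the third paralog, read 351 and 277 against 248 and 215 (0.41 ± 0.16, adjusted p = 0.470; 0.24 without MED1 replicate 1), the opposite direction. The pair of genes with the lowest adjusted p, named after their values were seen, were also opposed: the clock repressor BHLHE40 read 781 and 823 against 636 and 524 (0.46 ± 0.12), and NFIL3, a repressor of clock output genes, read 460 and 493 against 625 and 635 (-0.39 ± 0.11). Both MED1 arrays lay below both empty vector arrays for 6 of the 15 genes and above for 4, where 22.6% and 17.2% of all tested probe sets did so.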
